A study of Homo sapiens and Mus musculus with 36 samples.

Results

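The genes described here are grouped under the defence of epithelial surfaces, although some of them are better known from myeloid cells. They are PIGR, LYZ, LCN2, VNN1 and VNN2 in the human files and Pigr, Lyz2, Lcn2, Vnn1 and Tff3 in the mouse files, 10 genes in all, matched by exact symbol. The human set is 5 of 26457 listed symbols in the guide libraries (15899 in the drug libraries), and the mouse set is 5 of 22673. The genes were chosen by their measured response: PIGR, LYZ and VNN2 were known to be higher with DOT1L knockout and with EPZ-5676 in HuH-7, and Tff3 with knockout in Hepa1-6. Those 4 comparisons are therefore given as description, and where the chosen genes pass a threshold in them, that is no test of these genes.

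The series holds counts per gene from RNA sequencing of 36 libraries in 17 groups. The human line HuH-7 comes from a hepatocellular carcinoma. Of the mouse lines, Hepa1-6 and Hep53.4 are labelled hepatocellular carcinoma and LLC is labelled lung carcinoma. In each line DOT1L, the histone H3 lysine methyltransferase, was targeted with guide sg1 or guide sg2 (labelled knockout), and cells with guide sgNeg2, labelled wild type, are the control. Each guide has 2 libraries in each setting. The HuH-7 guide groups exist without and with interferon (IFN), and the labels state neither which interferon was used nor its dose or duration. Wild-type HuH-7 cells also received EPZ-5676, a DOT1L enzyme inhibitor, for 7 days or its vehicle DMSO, with 3 libraries each. Whether the edited cells are pools or clones, and whether replicates are separate cultures, is not given in the sources used here, so a p-value here speaks only for the spread among these libraries.

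PIGR encodes the polymeric immunoglobulin receptor, which carries secretory IgA and IgM across epithelial cells into secretions such as bile. LYZ encodes lysozyme, which cuts the peptidoglycan of bacterial walls, and mouse Lyz2 is the form of macrophages and other myeloid cells. LCN2 encodes lipocalin 2, which binds the siderophores that bacteria use to take up iron and is made by hepatocytes in the acute phase response. Vanins are pantetheinases that release vitamin B5 and cysteamine from pantetheine: VNN1 is an enzyme of liver and gut epithelium, and VNN2 is best known from neutrophils. Tff3 encodes a trefoil factor that goblet cells secrete with mucins and that takes part in epithelial repair.

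In GENCODE v29 on hg38, PIGR lies on the minus strand of chromosome 1 from 206928518 to 206946466, LYZ on the plus strand of chromosome 12 from 69348341 to 69354234, and LCN2 on the plus strand of chromosome 9 from 128149071 to 128153455. The vanin genes are neighbours on the minus strand of chromosome 6. VNN1 runs from 132681590 to 132714049, VNN3 from 132722787 to 132734765 and VNN2 from 132743870 to 132763459, with gaps of 8737 and 9104 bases between them. LYZ and VNN2 overlap annotated antisense genes, AC020656.1 and AL032821.1, and VNN1 holds the pseudogene CCNG1P1 on the opposite strand. Whether the counting used strand is not given in the sources used here, so reads of these partners cannot be told apart from those of the members.

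Promoter sequence is shown for PIGR, VNN2 and LCN2 because each was higher in HuH-7 cells with knockout and with EPZ-5676 and because RefSeq (GRCh38.p14) supplies their start sites. Each window is the stretch of the 250 bases before the start site that no annotated exon of the gene covers, 5′ to 3′ on the gene's own strand. For LCN2 176 bases are printed and for VNN2 246, while patterns were searched in all 250. Both printed stretches end before the RefSeq start site, so positions given from that site exceed those counted from the printed end. The LCN2 window lies inside the GENCODE gene interval given above, before a RefSeq start site that is further downstream. Capitals mark matches, on either strand, to 4 patterns: the interferon gamma-activated element (GAS) TTCNNNGAA, the core of the interferon-stimulated response element (ISRE), the NF-kappaB core and the TATA box TATAAA.
PIGR, chr1:206946467-206946716: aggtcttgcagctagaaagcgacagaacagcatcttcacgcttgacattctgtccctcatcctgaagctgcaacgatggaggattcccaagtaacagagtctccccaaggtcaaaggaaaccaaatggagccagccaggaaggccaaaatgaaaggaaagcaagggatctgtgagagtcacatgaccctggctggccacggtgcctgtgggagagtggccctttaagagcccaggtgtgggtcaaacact
VNN2, chr6:132763460-132763705: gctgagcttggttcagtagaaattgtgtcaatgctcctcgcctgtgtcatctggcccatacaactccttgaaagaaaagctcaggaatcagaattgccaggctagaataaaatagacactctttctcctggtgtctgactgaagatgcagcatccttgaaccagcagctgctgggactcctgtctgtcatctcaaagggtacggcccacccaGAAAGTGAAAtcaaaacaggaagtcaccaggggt
LCN2, chr9:128149265-128149440: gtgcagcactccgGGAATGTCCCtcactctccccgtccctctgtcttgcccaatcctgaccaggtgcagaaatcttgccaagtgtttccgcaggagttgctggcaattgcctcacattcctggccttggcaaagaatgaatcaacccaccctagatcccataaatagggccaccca
No one of these 4 patterns is in all 3 windows. VNN2 holds the ISRE core, which begins 38 bases before the start site and is found in 3.02% of 35116 promoter windows of 250 bases. LCN2 holds the NF-kappaB core on the opposite strand, 175 bases before the start site, a pattern in 5.67% of windows. PIGR holds none of the 4 (GAS is in 6.57% and the TATA box in 10.7% of windows) and has the nuclear receptor site AGGTCA 143 bases before the start, as 12.1% of windows do. Further patterns searched on both strands were C/EBP TTNNGNAA (33.2% of windows), AP-1 TGANTCA (6.57%), the HNF1 site GTTAAT (6.23%), the SP/KLF box GGGCGG (42.6%) and the E-box CANNTG (61.8%). LCN2 holds the C/EBP and AP-1 patterns, none of the windows holds GTTAAT or GGGCGG, and the E-box is in all 3. These are matches of letters and were not measured as binding sites.

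Library totals were 19580588 to 22649969 counts in HuH-7 guide libraries without IFN, 47594968 to 61227426 with IFN, 48912627 to 58628528 in the drug set (DMSO, EPZ-5676) and 42637155 to 59686358 in the mouse set. Small nuclear, nucleolar and related RNA genes took 3.24 to 5.90% of counts without IFN, 0.0102 to 0.0118% with IFN and 0.0170 to 0.0225% in the drug set, so the libraries without IFN differ in kind from the others. Odd values made up 54.8 to 55.8% of counts from 1 to 50 without IFN but 25.3 to 42.0% in the other libraries, so counting error there may be larger than the counts imply. DOT1L was lower in every edited HuH-7 library than in its sgNeg2 controls (32.1 to 40.4 against 73.1 and 75.5 CPM without IFN, and 42.5 to 66.8 against 108 and 109 CPM with IFN). Mouse Dot1l was likewise lower in every edited library of its line, least so in Hep53.4 (11.5 to 16.4 against 23.0 and 23.7 CPM). All 11 hepatocyte markers exceeded 5 CPM in HuH-7, against 8 of 10 listed in Hepa1-6, 4 of 10 in Hep53.4 (Alb at 1.35 CPM) and none in LLC sgNeg2 cells, where airway secretory markers summed to 0.101 to 0.149 CPM.

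PIGR was higher in edited than in control HuH-7 cells. Levels are library-scaled counts (CPM, scaled by TMM). Without IFN PIGR stood at 60.6 and 63.6 CPM in the sgNeg2 libraries, 177 and 182 CPM with sg1, and 212 and 201 CPM with sg2. With IFN it stood at 58.4 and 60.4 CPM with sgNeg2, 213 and 212 CPM with sg1, and 210 and 219 CPM with sg2. Every edited library lay far above both controls of its setting (lowest edited 177 against highest control 63.6 CPM without IFN). The log2 difference between knockout and sgNeg2 was 1.63 ± 0.08 (SE) without IFN and 1.85 ± 0.08 with IFN. With DMSO PIGR was at 14.98, 15.14 and 15.8 CPM and with EPZ-5676 at 45.9, 45.4 and 43.9 CPM, a log2 difference of 1.56 ± 0.06. The guide and drug tables were scaled separately, so the lower PIGR level of both drug groups is set beside the guide libraries without a test.

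LYZ was above its controls in the same 3 comparisons. Without IFN it was at 44.3 and 44.8 CPM with sgNeg2, 115 and 117 CPM with sg1, and 140 and 154 CPM with sg2. With IFN it was at 87.0 and 83.9 CPM with sgNeg2, 239 and 244 CPM with sg1, and 229 and 221 CPM with sg2. With DMSO the 3 libraries held 84.3, 82.0 and 84.9 CPM, and with EPZ-5676 174, 166 and 170 CPM. No edited or drug-treated library overlapped its controls. The log2 differences were 1.56 ± 0.11, 1.45 ± 0.11 and 1.02 ± 0.03.

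VNN2 showed the largest log2 difference of the well-counted human members. The sgNeg2 libraries held 9.30 and 9.71 CPM without IFN and 10.1 and 9.01 CPM with IFN. The sg1 libraries held 31.7 and 29.8 CPM without IFN and 39.5 and 41.4 CPM with IFN. The sg2 libraries held 38.9 and 38.2 CPM without IFN and 38.0 and 36.8 CPM with IFN. These are log2 differences of 1.86 ± 0.13 and 2.03 ± 0.13. With EPZ-5676 VNN2 was at 18.8, 18.8 and 20.2 CPM against 5.70, 5.77 and 5.25 CPM with DMSO, a log2 difference of 1.79 ± 0.08.

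LCN2 differed less. Without IFN it was at 26.2 and 31.1 CPM with sgNeg2, 55.2 and 61.9 CPM with sg1, and 62.6 and 69.6 CPM with sg2. With IFN it was at 22.4 and 22.5 CPM with sgNeg2, 39.2 and 43.8 CPM with sg1, and 54.1 and 55.5 CPM with sg2. DMSO libraries held 9.74, 9.78 and 10.7 CPM and EPZ-5676 libraries 15.5, 16.2 and 17.7 CPM. The log2 differences were 1.12 ± 0.15, 1.103 ± 0.145 and 0.71 ± 0.08, and again no libraries overlapped.

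VNN1 was close to the detection limit in every HuH-7 library. Without IFN its counts were 6 and 7 with sgNeg2 (0.258 and 0.298 CPM) and 18 to 35 in the edited libraries (0.820 to 1.63 CPM), a log2 difference of 2.08 ± 0.61. With IFN the sgNeg2 libraries held 21 and 7 counts (0.497 and 0.151 CPM) and the edited ones 34, 33, 37 and 9 (0.197 to 0.681 CPM), so these groups overlapped (log2 0.76 ± 0.53). That value was 1.83 without IFN sgNeg2 replicate 1 and 0.13 without IFN sgNeg2 replicate 2. With EPZ-5676 VNN1 had 90, 67 and 77 counts (1.13 to 1.595 CPM) against 16, 20 and 12 with DMSO (0.208 to 0.415 CPM), a log2 difference of 2.16 ± 0.34.

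**Figure D1:**
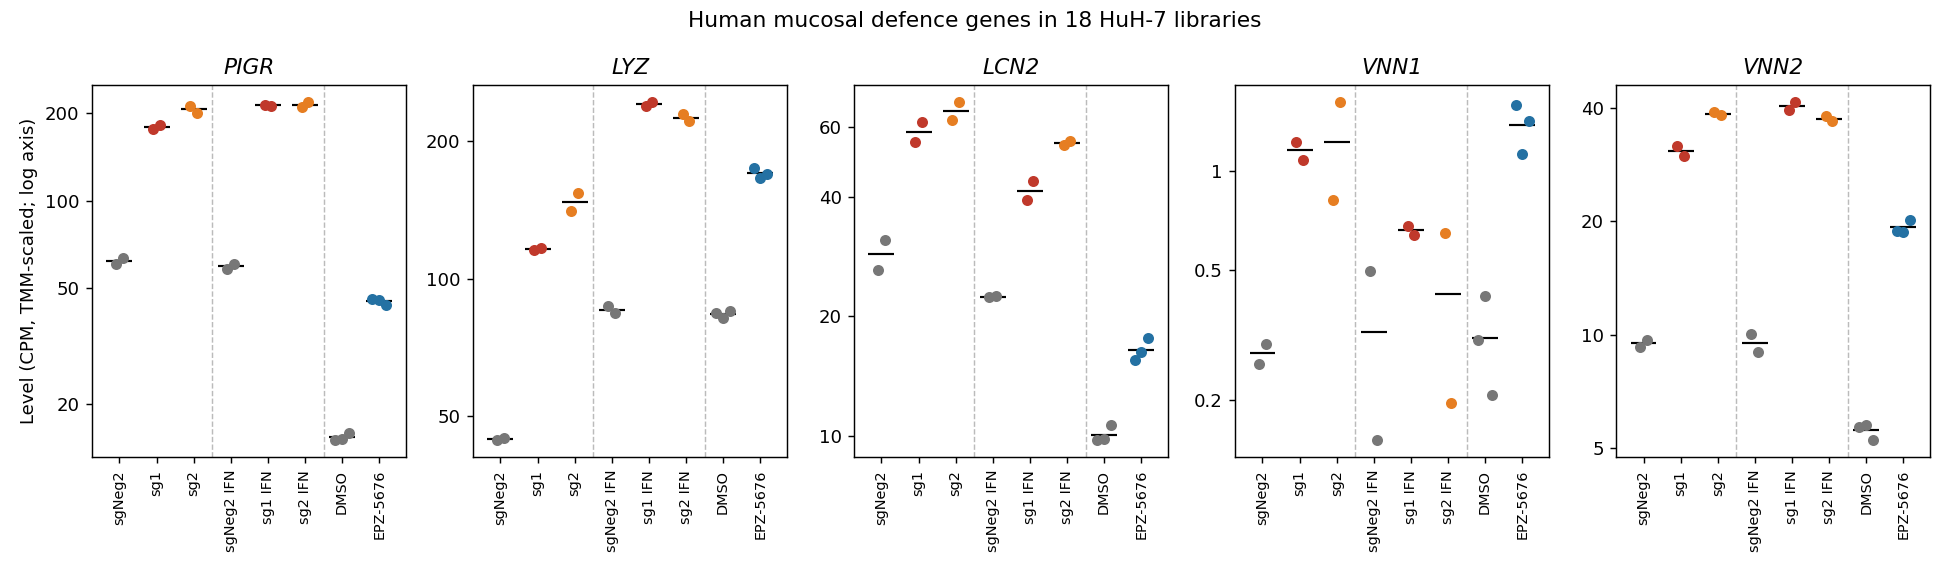
Level of each human gene in each of the 18 HuH-7 libraries (CPM on a log axis, with its own range per panel). Points are libraries, black lines are group means, and dashed lines part the libraries without IFN, with IFN and with DMSO or EPZ-5676; edited and EPZ-5676 libraries lie above the controls of their own set except for VNN1 with IFN, where they overlap.

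VNN1 is the least secure of these values: without IFN it missed the threshold in 5 of 6 fits that left out 1 library.

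Of the 5 human members 5 passed the threshold (adjusted p below 0.05) and were higher in knockout cells without IFN, where 11.3% of 16448 genes passed in either direction. With IFN 4 members did so against 12.4% of genes, and with EPZ-5676 5 did against 33.7% of 15023 genes. The genes were picked from these comparisons, so the counts and the lack of overlap describe the choice and are no support for it. The share of all genes whose groups did not overlap was not computed. The median log2 difference of the 5 members was 1.63, 1.45 and 1.56, against 0.00, -0.06 and 0.01 over all genes tested. Knockout and EPZ-5676 comparisons used separate control libraries, whereas both guides shared their 2 sgNeg2 libraries in each setting.

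The guides could be compared with each other, since that contrast did not choose the genes. Without IFN none of 5 members differed between sg2 and sg1 in edgeR's quasi-likelihood test, against 0.0304% of all genes. At an unadjusted p below 0.05 there were 3 (PIGR, LYZ and VNN2), and DESeq2 called 2. LYZ came closest, with a log2 difference of 0.34 ± 0.05 (edgeR adjusted p = 0.0502), and VNN2 followed with 0.33 ± 0.08 (adjusted p = 0.214). These counts moved with single libraries, for all genes as for members: without sg2 replicate 1 the test called 4 members and 3688 genes, and without sg2 replicate 2 it called 2 members and 96 genes, against 5 genes with all libraries. The sg2 replicates were the least alike of the HuH-7 pairs, with a chi-square of 24.7 per gene between their counts against 2.81 to 7.51 in the other pairs. With IFN 1 of 5 members differed, against 34.4% of genes: LCN2 was 1.32-fold higher with sg2 (log2 0.40 ± 0.09, edgeR adjusted p = 0.0042). That call was lost without IFN sg1 replicate 1 (log2 0.32, adjusted p = 0.066). PIGR was not called between guides with IFN (log2 0.01, adjusted p = 0.919, 95% interval -0.10 to 0.11), and DOT1L itself was higher with sg2 than with sg1 there (log2 0.58 ± 0.07, adjusted p = 0.000202).

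**Figure D2:**
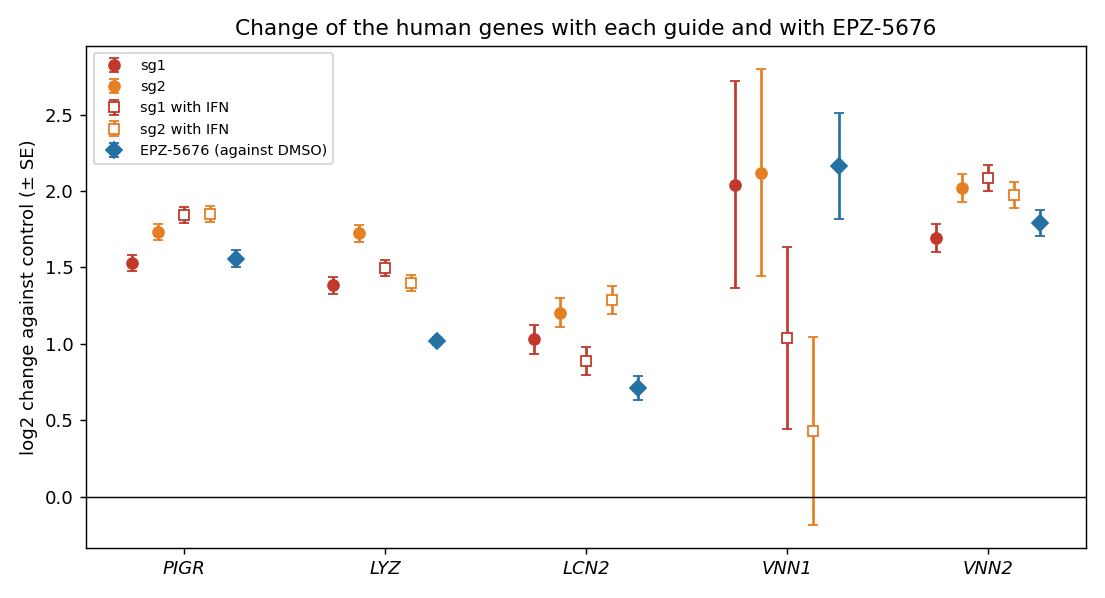
Log2 difference from the control of the same set for each human gene, with bars of 1 SE. Circles are guides without IFN, open squares guides with IFN, and diamonds EPZ-5676 against DMSO; PIGR, LYZ and VNN2 lie between 1.02 and 2.09 in all 5 columns, LCN2 lies lower and VNN1 has the widest bars.

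The comparison of IFN with no IFN asks whether the cytokine itself moves these genes, and it did not choose them. It is confounded: the libraries without IFN carried far more small RNA genes (shares above), so IFN and the kind of library cannot be told apart. In sgNeg2 cells 1 of 5 members was called, against 67.8% of all genes. LYZ was 1.92-fold higher with IFN (log2 0.94 ± 0.12, edgeR adjusted p = 1.75e-05). PIGR differed by -0.06 ± 0.09 (adjusted p = 0.542, 95% interval -0.26 to 0.13), VNN2 by 0.00 ± 0.14 (adjusted p = 0.988), LCN2 by -0.35 ± 0.16 (adjusted p = 0.0688) and VNN1 by 0.20 ± 0.72. LCN2 passed with RLE scaling (adjusted p = 0.0438) and with DESeq2 (adjusted p = 0.0326). In the same libraries IRF1, an interferon-induced transcription factor gene, went from 29.6 to 276 CPM.

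The DMSO libraries, which resemble the IFN libraries in small RNA content, gave another picture as control. Of 14898 genes listed in both sets and above the filter on low counts 70.4% were called, and 3 of 5 members were among them. PIGR was at 14.4 to 15.3 CPM with DMSO and 53.6 and 55.4 CPM in IFN-treated sgNeg2 cells, scaled within that fit, a log2 difference of 1.88 ± 0.06 (edgeR adjusted p = 7.59e-23). LCN2 was higher by 1.09 ± 0.09 (adjusted p = 6.39e-12) and VNN2 by 0.70 ± 0.13 (adjusted p = 2.06e-05). LYZ was not (log2 -0.04 ± 0.04, adjusted p = 0.37), with 78.9 to 81.8 CPM with DMSO and 79.9 and 77.0 CPM with IFN. The LYZ rise with IFN was thus present against sgNeg2 without IFN and absent against DMSO, and for PIGR, LCN2 and VNN2 the reverse held. DMSO and sgNeg2 cells also differ in vehicle and in carrying a control guide, which cannot be told apart from IFN here. PIGR averaged 62.1 CPM in sgNeg2 cells without IFN, 59.4 CPM with IFN and 15.3 CPM with DMSO. LYZ averaged 44.5, 85.4 and 83.7 CPM in the same groups. Guide and DMSO libraries were scaled in separate fits for these means, and sgNeg2 cells without IFN were not tested against DMSO.

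**Figure D3:**
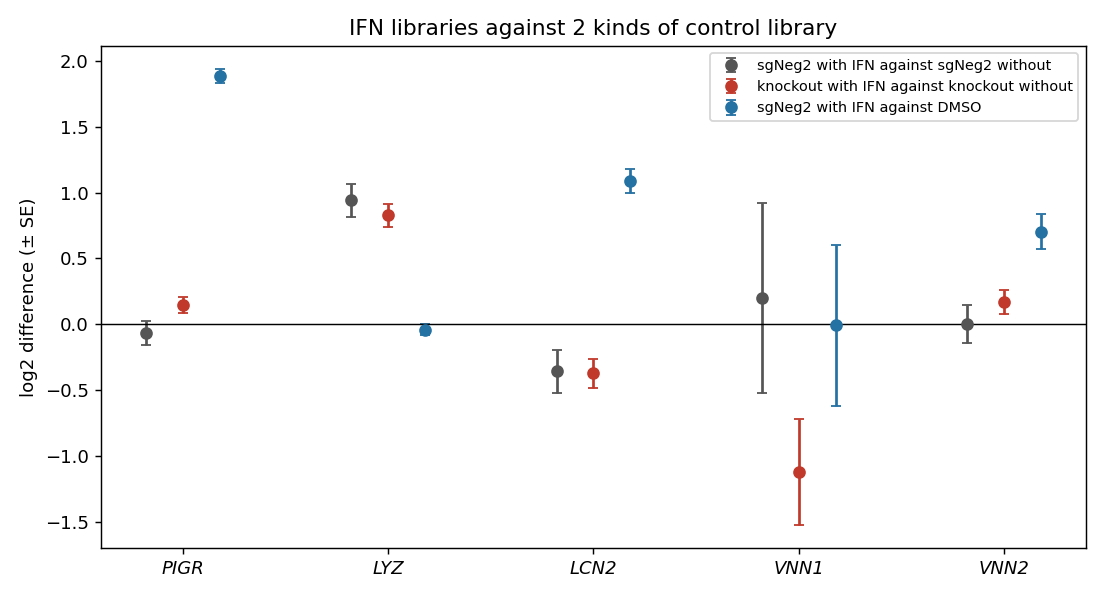
Log2 difference of the human genes in IFN libraries, with bars of 1 SE, against libraries without IFN (grey, sgNeg2 cells; red, knockout cells) and of sgNeg2 IFN libraries against DMSO (blue). LYZ is near 0.9 against cells without IFN and near 0 against DMSO, whereas PIGR is near 0 and at 1.88.

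In knockout cells 4 of 5 members differed with IFN, against 78.6% of genes. LYZ was higher (log2 0.83 ± 0.09, edgeR adjusted p = 9.19e-07) and PIGR slightly so (0.15 ± 0.06, adjusted p = 0.0423). LCN2 was lower (-0.37 ± 0.11, adjusted p = 0.00778), and so was VNN1 (-1.12 ± 0.40, adjusted p = 0.0204), on 9 to 37 counts per library. VNN2 had a log2 of 0.17 ± 0.09 (adjusted p = 0.108). VNN2 was called with the guides as separate groups (edgeR adjusted p = 0.00943). It was also called without sg2 replicate 1 (adjusted p = 0.0438) and without sg2 replicate 2 (adjusted p = 0.0487). The PIGR call was lost in 6 of 8 fits that left out 1 library (adjusted p up to 0.0916), and that of VNN1 without sg2 replicate 2 (adjusted p = 0.0679).

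The interaction asks whether the knockout difference itself changed with IFN. None of 5 members was called by edgeR or DESeq2, edgeR gave none and DESeq2 1 with an unadjusted p below 0.05, and 0.505% of all genes were called. The change in the knockout effect was 0.21 ± 0.11 for PIGR (95% interval -0.02 to 0.45), -0.11 ± 0.15 for LYZ (-0.44 to 0.21), -0.02 ± 0.20 for LCN2 (-0.44 to 0.41) and 0.17 ± 0.17 for VNN2 (-0.20 to 0.53). For VNN1 it was -1.32 ± 0.82 (-3.09 to 0.45), too wide to place. The kind of library cancels within each arm of this contrast only if it acts alike on edited and control cells, which was not tested.

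Per kilobase of a gene's annotated exons, all merged, LYZ was the most abundant of the human members in every group. Merged exons can exceed the length of the transcript that is made, so the order holds for this length only. In sgNeg2 cells without IFN it held 25.2 CPM per kilobase of exon, followed by LCN2 at 17.9, PIGR at 14.2, VNN2 at 3.61 and VNN1 at 0.0896 CPM per kilobase. In knockout cells PIGR (44.0) passed LCN2 (39.0), and LYZ stood at 74.6 CPM per kilobase. In DMSO cells the order was LYZ (47.5), LCN2 (6.30), PIGR (3.50), VNN2 (2.12) and VNN1 (0.0996). LCN2 and PIGR were close neighbours in the order: with IFN they held 14.0 and 13.6 CPM per kilobase in sgNeg2 cells. The remaining genes kept the order LYZ first, VNN2 next to last and VNN1 last in each of the 6 groups.

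Over the 18 HuH-7 libraries, centred within the 3 sets, PIGR and VNN2 were each other's nearest gene among 10813 genes of at least 5 CPM on average (Pearson r = 0.996 of log2(CPM + 1)). LYZ was nearest to MAP1B, a neuronal microtubule-associated protein gene (r = 0.99), then VNN2 (0.989) and NT5E, the gene of the ecto-nucleotidase CD73 (0.988). PIGR was next nearest to ARMCX1 (0.988) and to the proteoglycan gene VCAN (0.987), and VNN2 to LYZ (0.989) and ARMCX1 (0.988). LCN2 was nearest to BEX1 (0.979), HOXD1 (0.977) and GPR161 (0.973), with LYZ at rank 8 (0.961), PIGR at rank 10 (0.957) and VNN2 at rank 30 (0.949). VNN1 was nearest to MINA (0.936), GSDMB (0.926) and CCL20 (0.903). The points share libraries and the knockout and drug contrasts that chose the genes, so these values are a description.

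VNN3, the third vanin, lies between VNN1 and VNN2 and is not a member. It stood at 22.8 ± 1.79 CPM (SD, n = 2) in sgNeg2 cells without IFN and 33.7 ± 4.76 CPM (SD, n = 4) in knockout cells, a log2 change of 0.56 ± 0.13 (edgeR adjusted p = 0.0148). In the IFN libraries the means were 6.03 and 13.6 CPM, a rise of 1.17 ± 0.14 in log2 (edgeR adjusted p = 9.96e-05). EPZ-5676 raised it from 8.05 to 17.0 CPM, by 1.08 ± 0.08 (edgeR adjusted p = 2.45e-18). In sgNeg2 cells VNN3 was lower with IFN than without (log2 -1.92 ± 0.16, adjusted p = 2.42e-07). VNN3 is in a list of 18 genes of vanin and pantetheine metabolism. In knockout cells without IFN 2 of 17 tested rose and none fell, where 11.3% of all genes were called. The 2 were VNN3 and CDO1, the cysteine dioxygenase gene (log2 0.50). Nothing is read from this count about the list. The list's median log2 was -0.06 without IFN, -0.09 with IFN and 0.01 with EPZ-5676.

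Other antimicrobial genes were called in both directions in HuH-7, with more rises than falls in the knockout and drug comparisons. Libraries with IFN against those without showed more falls than rises, where IFN and the kind of library cannot be told apart. Of 24 tested, 5 rose and 2 fell in knockout cells without IFN (list median log2 0.31), where 1143 of all genes rose and 720 fell (11.3% called). In knockout cells with IFN 14 rose and 1 fell (0.85), against 1170 and 867 of all genes (12.4% called). With EPZ-5676 12 of 20 rose and 1 fell (0.70), against 2274 and 2793 of all genes (33.7% called). For IFN against none in sgNeg2 cells 3 rose and 15 fell (-1.40), against 5430 and 5715 of all genes (67.8% called). CCL20, a chemokine that is also antibacterial, went up from 103 to 276 CPM in knockout cells without IFN (log2 1.42 ± 0.07, edgeR adjusted p = 8.92e-08). With EPZ-5676 it went up from 126 to 307 CPM (log2 1.29 ± 0.02, edgeR adjusted p = 7.68e-56). CCL28 is a mucosal chemokine for IgA-secreting cells. In knockout cells it rose by a log2 of 1.64 ± 0.17 without IFN and 1.80 ± 0.19 with IFN, from low sgNeg2 levels of 2.80 and 0.656 CPM. DUOXA2, the maturation factor of a hydrogen peroxide-producing oxidase, was at 1.23 CPM in sgNeg2 and 4.29 CPM in knockout cells, both with IFN (log2 1.80 ± 0.19). SAA2, an acute phase serum amyloid, rose from 15.6 to 38.7 CPM with EPZ-5676 (log2 1.31 ± 0.06). LBP (log2 -1.13) and DMBT1 (-1.04) fell in knockout cells without IFN. With EPZ-5676 these genes rose (0.71 and 0.51).

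Mucin and trefoil genes can be read against the same shares and directions over all genes. Of 15 tested, 5 rose and none fell in knockout cells without IFN (median log2 0.49), 4 rose and 1 fell with IFN (0.50), and of 12 tested 5 rose and 1 fell with EPZ-5676 (0.31). For IFN against none in sgNeg2 cells, confounded as above, 3 rose and 8 fell (-0.57). The transmembrane mucin gene MUC13 rose from 86.4 to 182 CPM in knockout cells with IFN (log2 1.07 ± 0.12) and from 27.4 to 57.8 CPM with EPZ-5676 (1.08 ± 0.05). MUC3A, another transmembrane mucin gene, rose by log2 values of 1.08 ± 0.13, 1.11 ± 0.13 and 0.73 ± 0.13 in the 3 comparisons. GP2, a glycoprotein that binds bacteria, rose from 6.67 to 16.1 CPM in knockout cells without IFN. Human TFF3 had 2.46 and 2.75 CPM in sgNeg2 and knockout cells without IFN (log2 0.16, adjusted p = 0.823). With IFN it was at 0.409 CPM in sgNeg2 and 1.11 CPM in knockout cells (log2 1.42 ± 0.41, edgeR adjusted p = 0.0361). With EPZ-5676 it had a log2 of 0.57 (edgeR adjusted p = 0.209). In sgNeg2 cells TFF3 was lower with IFN than without (log2 -2.57 ± 0.45).

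The machinery that moves the immunoglobulin receptor through cells showed no shared direction. Of 6 transport genes tested 1 rose and 1 fell in knockout cells without IFN (list median log2 -0.11), where 11.3% of all genes were called. MAL2, needed for transcytosis in hepatic cells, rose from 150 to 227 CPM (log2 0.59 ± 0.11, edgeR adjusted p = 0.00373). RAB3D, a GTPase of secretory vesicles, fell by a log2 of 0.32 ± 0.08. In knockout cells with IFN none rose and the motor protein gene MYO5B fell by 0.21 (12.4% of all genes called). With EPZ-5676 MAL2 rose (0.19) while MYO5B fell (-0.27), and RAB3D fell as well (33.7% of all genes called). None of 3 tested genes for lipocalin receptors and related partners was called by edgeR in these 3 comparisons; LRP2, the megalin receptor gene, had log2 values of 0.13, -0.04 and 0.06.

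Regulators that are known to act on such genes were called in both directions. Of 31 tested, 4 rose and 8 fell in knockout cells without IFN (median log2 -0.19), where 11.3% of all genes were called. In knockout cells with IFN 5 rose and 3 fell (0.08), against 12.4% of genes. With EPZ-5676 7 of 30 tested rose and 8 fell (0.03), against 33.7% of genes. The interferon gamma receptor gene IFNGR1 rose from 35.2 to 63.6 CPM in knockout cells without IFN (log2 0.85 ± 0.12). In knockout against sgNeg2 cells with IFN the interleukin 1 receptor gene IL1R1 rose by 1.13 ± 0.11. The double-stranded RNA receptor gene TLR3 rose there by 1.38 ± 0.34. With EPZ-5676 IL1R1 rose by 0.36 ± 0.05. NFKB2, an NF-kappaB subunit gene, rose by 0.50 ± 0.05 with EPZ-5676. CDX2, the intestinal homeobox factor, was at 202 CPM in sgNeg2 cells and fell to 117 CPM in knockout cells (log2 -0.78 ± 0.12, adjusted p = 0.000721).

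Markers of cells that normally make these proteins were measured beside the members. LYZ and VNN2 are myeloid genes in blood, and of 15 myeloid markers 2 exceeded 5 CPM in sgNeg2 and in knockout HuH-7 cells without IFN. PTPRC, MPO, FCGR3A, TYROBP and MNDA held 0 counts in all 12 guide libraries. The myeloid markers summed to 94.7 to 100.2 CPM with sgNeg2 and 97.9 to 107 CPM in knockout cells without IFN, led by CD68, and to 204 to 212 and 198 to 246 CPM with IFN. Of 8 myeloid markers tested 1 rose and none fell in knockout cells without IFN (median log2 0.40). In knockout against sgNeg2 cells with IFN 2 rose and none fell (1.57), 1 of them CSF3R (log2 1.72 ± 0.35, from 0.514 CPM). With EPZ-5676 2 of 6 rose and none fell (0.20). Over all genes the medians were 0.00, -0.06 and 0.01, and 11.3%, 12.4% and 33.7% were called. Goblet and enterocyte markers summed to 510 to 517 CPM with sgNeg2 and 444 to 480 CPM in knockout cells without IFN, carried by CDX2 and CDH17, with CDX1, MUC2 and CLCA1 at 0 in all guide groups. Of 5 tested 3 rose, among them LGR5 (log2 2.13 ± 0.30) and the sucrase-isomaltase gene SI (1.43 ± 0.32), and 1 fell. Biliary markers summed to 414 to 426 and 443 to 458 CPM in the same groups, with KRT7 at 0. EPCAM rose by 0.75 ± 0.09 and SOX9 fell by 0.30 ± 0.07. Of 11 hepatocyte markers 1 rose and 8 fell in knockout cells without IFN, 2 and 2 in knockout cells with IFN, and 1 and 8 with EPZ-5676. Without IFN AFP rose (0.82 ± 0.09) and FGB fell (-0.73 ± 0.13). FGB rose in knockout cells with IFN (1.04 ± 0.14) and was at 168 CPM with EPZ-5676 against 144 CPM with DMSO. AFP was at 479 CPM in knockout against 365 CPM in sgNeg2 cells with IFN. With EPZ-5676 it was at 776 against 787 CPM with DMSO. The part of all these markers in the members' differences was not tested.

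**Figure D4:**
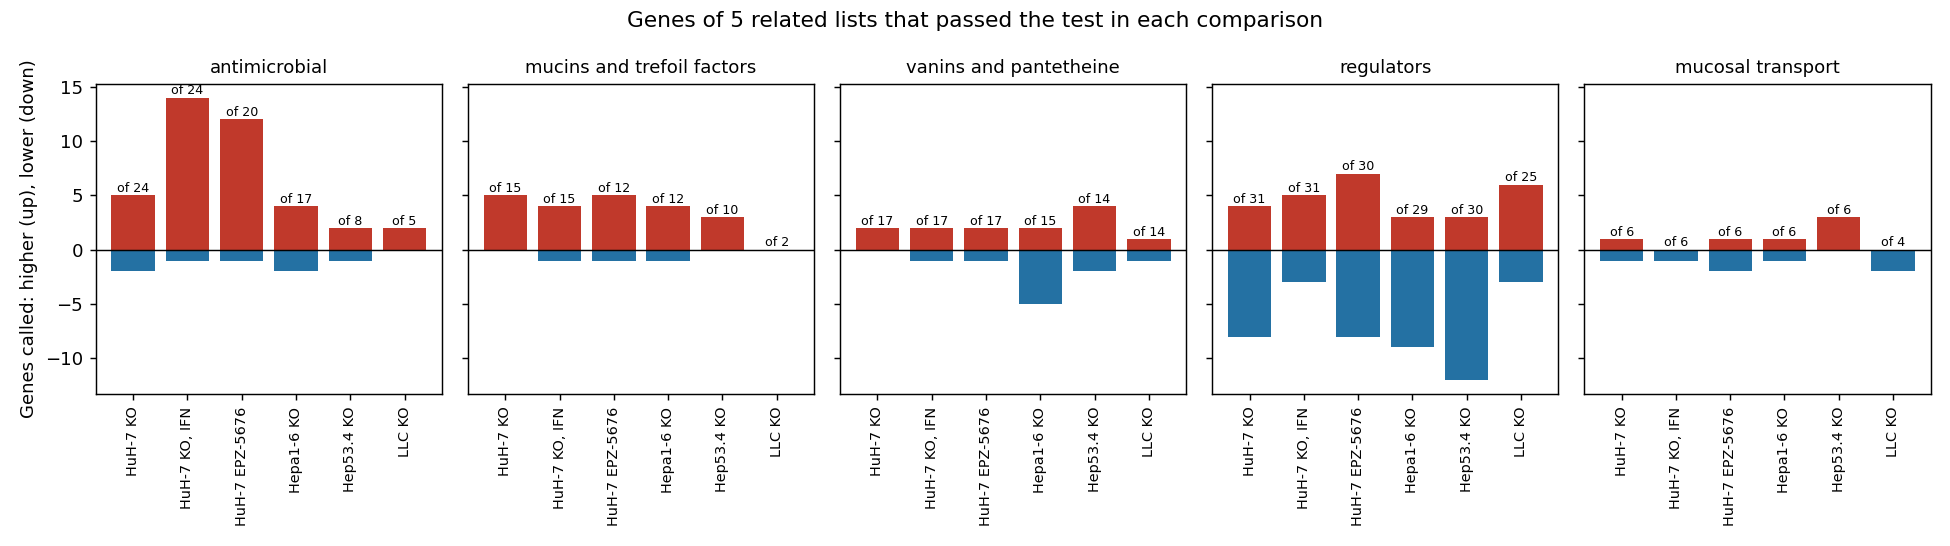
Number of genes of 5 related lists that passed the test in each comparison, drawn upward where higher and downward where lower than control, with the number tested above each bar. Antimicrobial genes reach 14 of 24 higher in HuH-7 knockout cells with IFN, and regulators are called in both directions in every comparison.

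In Hepa1-6 the trefoil factor gene was the member that stood out. Tff3 was at 6.72 and 9.16 CPM with sgNeg2, 23.6 and 22.7 CPM with sg1, and 23.9 and 26.9 CPM with sg2, so that no library overlapped. The log2 difference was 1.63 ± 0.12, and it chose the gene. Vnn1 stood at 144 and 150.0 CPM with sgNeg2 and 176 to 187 CPM in edited cells (log2 0.30 ± 0.04). Lcn2 was lower, at 199 and 195 CPM with sgNeg2, 167 and 159 CPM with sg1, and 182 and 181 CPM with sg2 (log2 -0.18 ± 0.04). Lyz2 had 17 and 13 counts with sgNeg2 and 18 to 36 in edited libraries (log2 0.89 ± 0.55). Pigr had 10 and 8 counts in the Hepa1-6 sg1 libraries, 3 or fewer in every other mouse library, and did not pass the filter on low counts in any comparison. Of the 4 members tested 3 passed the threshold in Hepa1-6, 2 higher and 1 lower, where 32.8% of 12493 genes passed; this comparison is part of the choice and is no support for it. Human LCN2 was higher and mouse Lcn2 lower in knockout cells, but the Lcn2 value missed the threshold without Hepa1-6 sgNeg2 replicate 1 (log2 -0.17) and in the joint fit of the mouse lines (log2 -0.19). The Hepa1-6 sg1 replicates were the least alike of the mouse pairs. Their chi-square was 62.6 per gene, against 4.1 to 8.64 in the other mouse pairs. Odd values made up 35.0% of low counts in Hepa1-6 sgNeg2 replicate 1 and 35.4% in sg2 replicate 2. The other Hepa1-6 libraries had 25.3 to 27.6%.

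Hep53.4 and LLC did not choose the genes, so the members were tested there. In Hep53.4 1 of 5 members passed the filter on low counts and none was called by edgeR or DESeq2, with none at an unadjusted p below 0.05, against 39.2% of 12227 genes. Vnn1 was at 102 and 98.3 CPM with sgNeg2, 109 and 109 CPM with sg1, and 95.4 and 102 CPM with sg2. The libraries overlapped, and the log2 difference was 0.05 ± 0.04 (edgeR adjusted p = 0.364, 95% interval -0.04 to 0.14). Lcn2 had 14 and 2 counts with sgNeg2, 10 and 8 with sg1, and 0 and 0 with sg2. Tff3 and Lyz2 were at 0 in both sgNeg2 libraries and reached 2 and 1 counts in single edited libraries.

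In LLC 3 of 5 members were tested and none was called by edgeR (33.5% of 12225 genes were), with 1 at an unadjusted p below 0.05. Lyz2 was at 1.19 and 1.29 CPM (64 and 77 counts) with sgNeg2, 1.73 and 1.81 CPM with sg1, and 1.67 and 2.25 CPM with sg2. Its edited libraries all lay above the controls, with a log2 difference of 0.56 ± 0.22 (edgeR adjusted p = 0.0526, 95% interval 0.11 to 1.02). It passed without sg2 replicate 1 (adjusted p = 0.0472) and with the guides as separate groups (adjusted p = 0.0479). Mouse Lyz1, nearly identical in sequence to Lyz2, had at most 0.0777 CPM as a group mean in any line, and reads shared by both genes may have been split. Tff3 had 0 and 4 counts with sgNeg2 and 2 to 16 in edited libraries (log2 1.98 ± 1.12, adjusted p = 0.187; 6.11 without LLC sgNeg2 replicate 2 and 1.095 without LLC sgNeg2 replicate 1), and Lcn2 3 to 12 counts (log2 -0.32 ± 0.74). Vnn1 was at 0 counts in both sgNeg2 libraries of LLC and at 4, 6, 2 and 4 in the edited ones, below the filter.

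**Figure D5:**
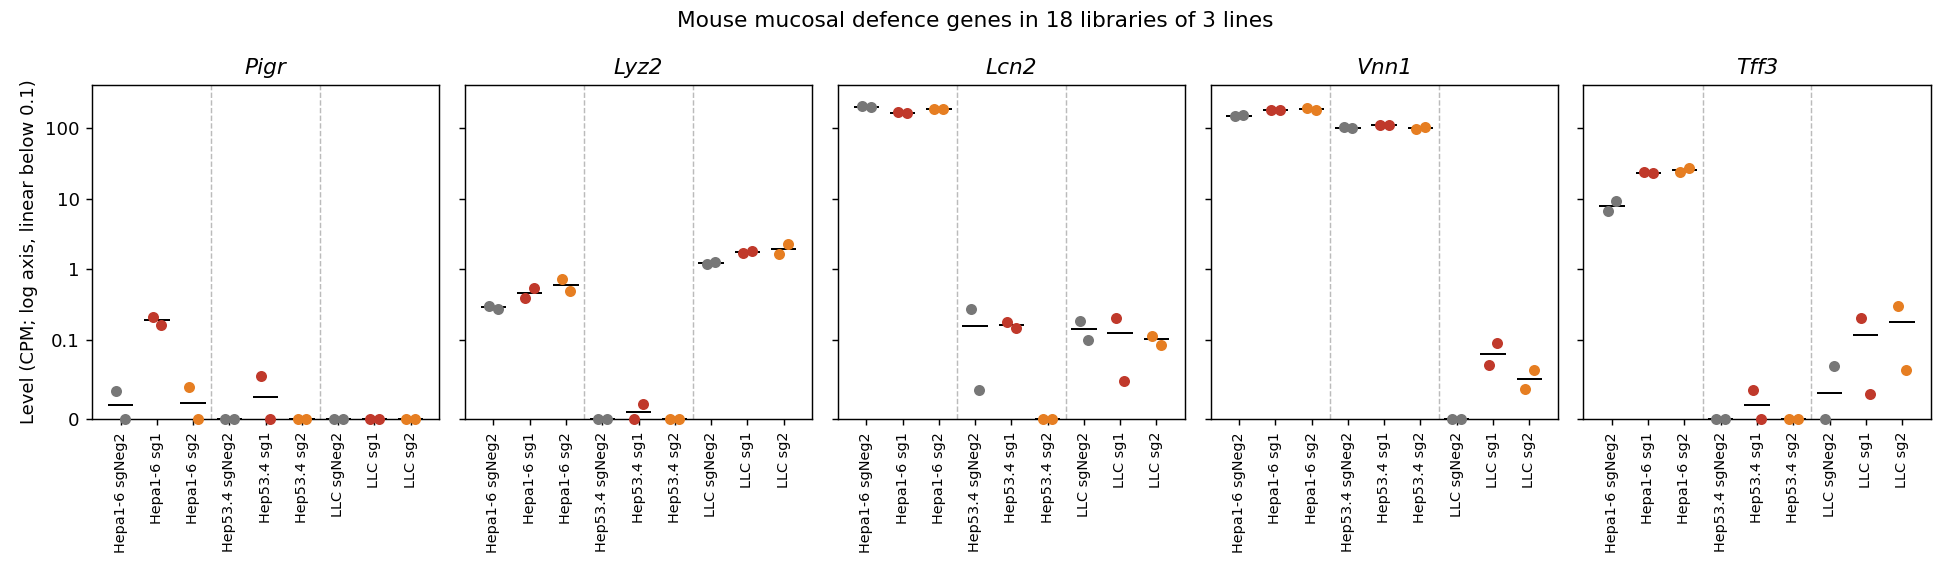
Level of each mouse gene in each of the 18 mouse libraries (CPM, log axis that is linear below 0.1). Points are libraries and black lines are means of 2; Tff3 is above 20 CPM in edited Hepa1-6 cells and below 0.4 CPM in every Hep53.4 and LLC library, and Vnn1 is near 100 CPM or more in both liver lines and near 0 in LLC.

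A joint fit of the 18 mouse libraries compared the knockout effect between Hep53.4 and LLC, where 29.2% of 14195 genes were called. It holds no usable test of the members, since each of the 4 that entered was below the filter on low counts in at least 1 of the 2 lines and entered the fit through lines where it is high. Vnn1 had a log2 difference of -4.83 ± 1.34, which is the 0 against 16 counts of LLC set beside a log2 of 0.05 in Hep53.4, and is given as a description. Lyz2, Lcn2 and Tff3 had at most 18 counts over the 4 edited Hep53.4 libraries.

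The mouse lines differed widely in their starting levels of these genes. Between sgNeg2 cells of Hepa1-6 and Hep53.4 76.2% of all genes were called. Members that are near 0 in 1 line entered this fit through the other, so they had to differ and are given as values. Vnn1, abundant in both, was 1.47-fold higher in Hepa1-6 (log2 0.55 ± 0.05, edgeR adjusted p = 3.97e-11). Lcn2 held 195 and 199 CPM in Hepa1-6 against 0.279 and 0.0365 CPM (14 and 2 counts) in Hep53.4, a log2 difference of 10.31, or 9.45 and 12.30 without 1 or the other Hep53.4 library. Tff3 was at least 274-fold and Lyz2 at least 10.2-fold higher in Hepa1-6, taken against a floor of 3 counts over the Hep53.4 group, where both were at 0. Between Hepa1-6 and LLC 81% of genes were called. Vnn1 was at least 5533-fold higher in Hepa1-6, and Lcn2 was higher by a log2 of 10.42 (10.03 to 10.90 without 1 library). Tff3 was higher by a log2 of 7.72, which rests on 0 and 4 LLC counts and ranged from 6.84 without LLC sgNeg2 replicate 1 to 11.69 without replicate 2. Lyz2 was 4.24-fold higher in LLC (log2 -2.08 ± 0.47, edgeR adjusted p = 0.00015). Between Hep53.4 and LLC 78.1% of genes were called, Vnn1 was at least 3771-fold higher in Hep53.4, and Lyz2 at least 43.6-fold higher in LLC. Lcn2 was under 0.3 CPM in both lines, and Tff3 was at 0 counts in Hep53.4 and at 0 and 4 in LLC. These floors cover counting error only.

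The order of the lines was therefore Hepa1-6, Hep53.4, LLC for Vnn1 and LLC, Hepa1-6, Hep53.4 for Lyz2, while Tff3 and Lcn2 were abundant in Hepa1-6 only among these 3 lines. Tff3 and Lcn2 were too low in Hep53.4 and LLC to order those lines. Between guides in Hepa1-6 none of 4 members was called by edgeR (3.02% of genes were), with 1 at an unadjusted p below 0.05. DESeq2 called 1, Lcn2, which was higher with sg2 (log2 0.15). Hep53.4 had 0.24% of genes called between guides. Vnn1, the member above the filter there, was lower with sg2 (log2 -0.14 ± 0.04, edgeR adjusted p = 0.155), and it passed with DESeq2 (adjusted p = 0.0328) and with no filter (adjusted p = 0.0458). Lcn2 in Hep53.4 held 10 and 8 counts with sg1 and 0 and 0 with sg2. In LLC, with 2.61% of genes called between guides, Lyz2 had a log2 difference of 0.15 ± 0.41 (edgeR adjusted p = 0.99), and the other members held at most 16 counts in a library.

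Over the 18 mouse libraries, not centred, the nearest genes follow the differences between lines, which form 3 clusters. Vnn1 was nearest to Lifr, Gm2a and Pklr (r of 0.9995, 0.9995 and 0.9992), and Lcn2 to Slc28a3, AU015836 and the fibrinogen gene Fgb (0.9996, 0.9996 and 0.9994). Tff3 was nearest to Eif2s2 (0.991), Nsmce2 (0.989) and Zc3h12a (0.989), and Lyz2 to Phb (0.991), Cenpq (0.987) and Fbn1 (0.985). The points share line and library, and 9892 or 9893 genes were compared.

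Genes of the related lists were called in each mouse line. Their counts are to be read against the shares called over all genes (32.8% in Hepa1-6, 39.2% in Hep53.4 and 33.5% in LLC, with 1811 up and 2284 down, 2378 and 2411, and 1957 and 2140), and nothing is read from them about the lists. In Hepa1-6 4 of 17 antimicrobial genes rose and 2 fell, among them S100a9, a calprotectin subunit gene (5.59 to 11.7 CPM, log2 1.07 ± 0.17), and the oxidase gene Duox2 (log2 1.05 ± 0.27). Of 12 mucin and trefoil genes there 4 rose, with Muc13 (log2 1.03 ± 0.25) and Muc4 (0.83 ± 0.25), and 1 fell, the abundant trefoil gene Tff2 (618 to 513 CPM, log2 -0.26). Mal2 rose by 0.62 ± 0.06, and Vnn3 fell by 0.18 ± 0.06 while its neighbour in the family Vnn1 lay higher. In Hep53.4 the gel-forming mucin genes Muc5ac (35.9 to 61.2 CPM, log2 0.77 ± 0.06, edgeR adjusted p = 4.74e-12) and Muc5b (44.3 to 69.3 CPM, 0.65 ± 0.05) rose among 3 of 10 mucin and trefoil genes, and 2 of 8 antimicrobial genes rose and 1 fell. In LLC 2 of 5 antimicrobial genes rose, Lbp (2.32 to 5.42 CPM, log2 1.202 ± 0.142) and Slpi (0.50 ± 0.12). The lists' medians were 0.29, 0.21 and 0.38 for antimicrobial genes in Hepa1-6, Hep53.4 and LLC, against 0.01, 0.00 and 0.01 over all genes. Regulators were called in both directions, 3 up and 9 down of 29, 3 and 12 of 30, and 6 and 3 of 25. Spi1 rose in Hepa1-6 (log2 1.30 ± 0.26, from 1.14 CPM), Elf3, an epithelial factor, in Hep53.4 (0.57 ± 0.05), and Cebpb fell in LLC (-0.73 ± 0.09).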

How the data were processed

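Counts per gene symbol were deposited by the authors for 36 RNA-seq libraries of total RNA. The submitters' processing notes name Trim Galore, HISAT2 2.2.1, SAMtools 1.9 and DESeq2 1.36.0 with builds hg38 and mm10; which counter, annotation and strand setting were used is not given in the sources used here. Both members and lists were chosen with earlier results of these data known. Listed genes are named as the 2 per list and comparison with the largest change among those called, at 1 CPM or more and without overlap between groups; others named (LBP, DMBT1, TFF3, Tff2, Vnn3, LRP2 and RAB3D) were chosen after their values were seen.

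Counts were tested with edgeR 4.0.16 (R 4.3.3, limma 3.58.1): filterByExpr with a minimum count of 10 and a minimum total of 15, TMM scaling and robust quasi-likelihood tests, called at a Benjamini-Hochberg adjusted p below 0.05 over all genes tested. Separate fits held the 12 HuH-7 guide libraries, the 6 drug libraries and, per mouse line, its 6 libraries; the 18 mouse libraries were fitted jointly for contrasts between lines and guides. SE is the size of the log2 value divided by the root of F. Alternatives were RLE scaling, DESeq2 1.42.0, no filter, a replicate block, other groupings and leaving out each library. Tested on simulated data with 200 changed genes, the knockout contrast in HuH-7 without IFN recovered 77% of 2-fold and 86% of 4-fold changes (15822 genes). Same-numbered libraries did not deviate together (correlations of -0.0219 to 0.0831 over 33 pairs), so they were not treated as paired. In groups of 2 libraries both numbers give the same correlation, so the 33 pairs are not separate values. Library totals of 19580588 to 61227426 counts set the precision, and levels under about 10 counts carry little information. Positions are from GENCODE v29, and promoter sequences from RefSeq; figures were drawn with matplotlib 3.10.9.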

Additional observations from a re-analysis of the deposited data

Results flagged for a closer look

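Of 24 groups of 4 edited libraries tested for 1 library apart from the other three, 5 had one. Chance flags about 1 in 20 groups, but that rate does not hold for 3 of these, where all but 1 library were at 0. VNN1 was at 0.197 CPM (9 counts) in HuH-7 IFN sg2 replicate 2, below the other edited IFN libraries at 0.641 to 0.681 CPM. Vnn1 was at 187 CPM in Hepa1-6 sg2 replicate 1, above 176 to 177 CPM in the other edited libraries. In Hep53.4, where 3 members were near 0, Pigr was at 0.0552 CPM (3 counts) and Tff3 at 0.0368 CPM (2 counts) in sg1 replicate 1, and Lyz2 at 0.0188 CPM (1 count) in sg1 replicate 2, with the other edited libraries at 0.

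The value for the knockout effect on Vnn1 in Hep53.4 less that in LLC was a log2 of -4.83 ± 1.34 in the joint fit. All 4 edited LLC libraries held 2 to 6 counts and both LLC controls 0, below the filter on low counts of that line, and Vnn1 entered the joint fit through the liver lines. The value depends on the prior count, is no bound, and its call was lost without LLC sgNeg2 replicate 2 (edgeR adjusted p = 0.0545), so a difference between the lines is not shown.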

How the results depend on the processing

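For the human members the knockout and EPZ-5676 differences kept their direction in every alternative run, as did Tff3, Vnn1 and Lcn2 in Hepa1-6. These comparisons chose the genes and the runs share their libraries, so a kept direction is no support. The cause of the changes below was not tested. Genes called between knockout and sgNeg2 numbered 1863 without IFN (4208 with guides as groups, 2897 with the compared libraries alone, 564 to 1670 without 1 library), 2037 with IFN (4182, 1000, 960 to 2162), 4095 in Hepa1-6 (2381 to 3976 without 1 library) and 4097 in LLC (2519 to 4193). The interaction count of 83 became 409 with DESeq2, 1441 with guides as groups and 19 to 176 without 1 library. Between guides, HuH-7 without IFN gave 5 genes (99 with DESeq2, 20 with no filter, 2 with the compared libraries alone, 0 to 3688 without 1 library), HuH-7 with IFN 5657 (2369 to 4234), Hepa1-6 429 (838 with DESeq2, 186 to 241), Hep53.4 34 (352 with DESeq2, 224 with no filter, 10 to 26) and LLC 370 (789 with DESeq2, 97 to 178). Members called for IFN in sgNeg2 cells numbered 1 (2 with RLE scaling, DESeq2 or the compared libraries alone, 3 with DMSO as control). Members called between guides numbered 0 in HuH-7 without IFN (1 with RLE scaling or no filter, 2 with DESeq2, 0 to 4 without 1 library), 1 with IFN (2 with the compared libraries alone, 0 to 1), 0 in Hepa1-6 (1 with DESeq2) and 0 in Hep53.4 (2 with DESeq2 or no filter). In LLC 0 members were called (1 with guides as groups, 0 to 1 without 1 library), and for Hep53.4 against LLC effects 1 was (0 to 1).

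With the replicate block, 53 genes were called for the interaction and 2 between HuH-7 guides without IFN, the PIGR difference with IFN in knockout cells missed the threshold (log2 0.15, edgeR adjusted p = 0.0566), and so did VNN1 in knockout cells without IFN (log2 2.10, adjusted p = 0.0543).

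Signs turned for values near 0 or on few counts. With DMSO as control for IFN, PIGR was 1.88, LCN2 1.09, LYZ -0.041 and VNN1 -0.0072. VNN2 with IFN in sgNeg2 cells was -0.044 with DESeq2 or RLE scaling, -0.013 with the compared libraries alone and -0.081 to 0.079 without 1 library. The LCN2 interaction was 0.040 with DESeq2 or RLE scaling and -0.091 to 0.10 without 1 library, and PIGR between guides with IFN was -0.0054 with the compared libraries alone and -0.021 to 0.040. Tff3 for Hep53.4 against LLC effects was -0.52 with DESeq2, -0.37 with guides as groups and -3.53 to 1.34 without 1 library, Lcn2 -1.26 to 1.59 and Lyz2 -0.60 to 1.42. Without 1 library VNN1 ranged from -0.87 to 0.83 for IFN in sgNeg2 cells and -0.49 to 0.49 between guides without IFN, and Lcn2 from -0.72 to 0.17 for knockout in LLC. For sgNeg2 Hep53.4 against LLC Lcn2 ranged from -1.86 to 0.97. Between guides in LLC Lcn2 ranged from -0.997 to 1.04, Lyz2 from -0.087 to 0.34 and Tff3 from -0.87 to 2.32, and Vnn1 between guides in Hepa1-6 from -0.0022 to 0.085. Depth limits VNN1 in HuH-7 and Pigr, Lyz2, Lcn2 and Tff3 in Hep53.4 and LLC.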
